A study of Mus musculus with 12 samples.

Results

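The SLAM family is a set of immunoglobulin-type surface receptors of blood cells, and CD2 is a related receptor of lymphocytes. Here 8 of their genes were followed, Slamf6, Cd2, Slamf9, Slamf7, Cd84, Cd48, Ly9 and Slamf1, in mouse bone marrow plasma cells. They are the rows that carry those gene names among the 14219 genes of the authors' table for day 60. Slamf6, Cd2, Slamf9 and Slamf7 were picked for their levels in CPM (read counts scaled to a common library total) across the 4 groups, so their values are given as a description with no test. Slamf1, Ly9, Cd48 and Cd84 come with them by family name and were tested.

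Plasma cells were sorted from the bone marrow of C57BL/6 mice of the genotype BLTcre.mcl1fl/+, in which tamoxifen had switched on a human CD4 reporter. Human CD4+ cells are called marked, and human CD4- cells unmarked. The groups are marked and unmarked cells of day 270 after tamoxifen, and marked and unmarked cells of day 60, with 3 libraries each. Every group carries the same Cre and the same floxed Mcl1 allele, and all mice had tamoxifen. The labels give neither the promoter that drives the Cre nor the age of the mice, and they do not say whether the floxed allele was altered in marked cells, so marking and any change of that allele cannot be told apart. The labels do not say that libraries of 1 group came from separate mice, so the p-values measure the spread between these libraries, which may be in part technical.

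The libraries held 7449468 to 15943547 reads on the genes of the table. Sdc1, which encodes the plasma cell surface protein syndecan-1, lay between 1748 and 2342 CPM in all 12 libraries, and Xbp1, a transcription factor of secretory cells, between 3931 and 6134 CPM. The sum of 11 plasma cell markers was less even, from 99590 to 336700 CPM, and Jchain ran from 79040 to 312700 CPM. The lowest values were in marked library 2 of day 270 and the highest in marked library 1 of day 60. At day 60 the medians in marked against unmarked cells were 603 against 742 CPM for Irf4 and 150 against 202.5 CPM for Prdm1. For Tnfrsf17 they were 359 against 295 CPM. By median the directions were the same at day 270. Features that look like ribosomal RNA took 21.1% of the reads in marked library 2 of day 270 and 6.67% in marked library 2 of day 60, against at most 2.08% in any other library. Replicate 1 of every group has a library number next to the other replicate 1 libraries. Among the remaining libraries every marked one has a higher number than every unmarked one, so effects of marking and of library order cannot be told apart among those.

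Most SLAM receptors bind a copy of themselves on the next cell. Cd48 differs, since its product is held in the membrane by a lipid anchor and is the ligand of CD244 and, in mice, of CD2. The tails of most SLAM receptors carry tyrosine motifs that recruit small adaptors of the SAP family, encoded by Sh2d1a and Sh2d1b1 among others. SAP itself, the product of Sh2d1a, brings in the kinase Fyn. When adaptors are scarce, there is room for inhibitory phosphatases. SLAMF7, the product of Slamf7, is known as an abundant antigen of plasma cells and is the target of a myeloma antibody. SLAMF9 has a short tail without those motifs.

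Of the 8 genes, 7 lie on chromosome 1 within 890 kb, and 6 of these lie within 364.5 kb. On GRCm38 and in the GENCODE M21 annotation, Ly9 lies at chr1:171588624-171607410, Slamf7 at chr1:171632403-171653035, Cd48 at chr1:171682009-171705258, Slamf1 at chr1:171767127-171801184, Cd84 at chr1:171839697-171890718, Slamf6 at chr1:171917515-171953170 and Slamf9 at chr1:172475358-172478575. Ly9 and Slamf7 run on the minus strand and the others on the plus strand. Cd2 lies apart, on the minus strand at chr3:101275899-101287939.

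The sequences before the starts of Slamf6 and Slamf9 are shown because these are the SLAM genes with the lowest and the highest log2 fold change between marked and unmarked cells. They are RefSeq's promoter windows on GRCm38.p6, plus strand, cut before the annotated gene, at chr1:171917212-171917461 for Slamf6 and chr1:172475110-172475357 for Slamf9. Capitals mark CACGTG, the E-box read by MYC and related factors, and GGAA or its reverse complement TTCC, the core read by ETS factors.
Slamf6: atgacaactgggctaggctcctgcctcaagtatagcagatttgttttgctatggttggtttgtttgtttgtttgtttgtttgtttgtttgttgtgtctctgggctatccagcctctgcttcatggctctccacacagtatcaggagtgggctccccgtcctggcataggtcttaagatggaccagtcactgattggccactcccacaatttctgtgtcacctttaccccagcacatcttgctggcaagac
Slamf9: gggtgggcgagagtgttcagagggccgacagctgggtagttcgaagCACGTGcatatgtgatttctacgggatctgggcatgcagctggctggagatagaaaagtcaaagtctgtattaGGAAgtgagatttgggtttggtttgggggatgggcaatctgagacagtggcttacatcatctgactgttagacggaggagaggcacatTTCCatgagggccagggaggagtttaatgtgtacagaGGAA
The Slamf9 stretch holds 1 CACGTG and 3 ETS cores, and the Slamf6 stretch holds 0 of either. Over 32851 RefSeq promoter windows of 250 bases, CACGTG was found in 6.02% and GGAA on either strand in 93.5%. The broader E-box core CANNTG, which includes CACGTG, was there 5 times in the Slamf9 stretch and 1 time in the Slamf6 stretch, and 66.2% of all windows held it. The Slamf6 stretch also lies inside the span of Gm37065, an antisense gene model. RefSeq windows were at hand for 6 of the 8 genes. Those of Slamf1, Cd48 and Cd84, cut in the same way, held 5, 2 and 5 ETS cores and 0 CACGTG, and these genes had negative log2 fold changes as Slamf6 did. A match is a description of the letters only.

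Slamf6 encodes a self-binding receptor, Ly108, of B, T and natural killer (NK) cells. It had 5.96, 12.5 and 16.3 CPM in the marked libraries of day 270, against 49.4, 54.8 and 30.8 CPM in the unmarked ones. Marked cells of day 60 had 7.28, 4.88 and 1.52 CPM, against 59.2, 40.0 and 30.4 CPM in unmarked cells. All 6 marked libraries lay below all 6 unmarked libraries over both days together. That pattern was seen in 1.85% of the 12704 genes tested, and since the gene was chosen on these levels nothing is read from it.

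The log2 fold change of Slamf6, marked minus unmarked, was -1.98 ± 0.48 (SE) at day 270 and -3.26 ± 0.48 at day 60. These are estimates by limma, a linear model with a pooled spread, of log2(CPM + 0.5), which understates the change of low genes. A marked and an unmarked library of a day share a number in their descriptions, which is read here as a specimen number though no label calls it that. Within specimens, the level in marked cells was 0.121, 0.228 and 0.530 times that in unmarked cells at day 270, and 0.123, 0.122 and 0.0499 times at day 60. The ratios of 0.121 and 0.123 are those of the replicate 1 libraries, whose library numbers adjoin. The part of library order in these ratios was not tested. In such bulk samples, fewer cells with the transcript and less of it per cell cannot be told apart.

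Cd2 encodes the adhesion and costimulation receptor that binds CD48 in mice. It had 4.20, 11.1 and 9.31 CPM in marked cells of day 270, against 24.9, 7.79 and 18.4 CPM in unmarked cells. At day 60 it had 9.30, 3.33 and 2.77 CPM in marked cells, against 21.1, 45.2 and 35.7 CPM in unmarked cells. Marked and unmarked libraries overlapped at day 270, and all marked libraries lay below all unmarked ones at day 60, as in 11.3% of all genes tested. The log2 fold change of Cd2 was -0.96 ± 0.53 (SE) at day 270 and -2.73 ± 0.53 at day 60. Cd2 was lower in the marked library in 5 of 6 specimens, the exception being specimen 2 of day 270, where the unmarked library had 7.79 CPM.

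Slamf9 encodes a receptor described in antigen-presenting cells such as macrophages and plasmacytoid dendritic cells. It had 294.5, 346 and 387 CPM in marked cells of day 270, against 150.5, 188 and 178 CPM in unmarked cells. In the day 60 libraries it had 158, 128 and 143 CPM in marked cells, against 127, 85.0 and 79.8 CPM in unmarked cells. Marked libraries lay above unmarked ones within each day, by a narrow margin at day 60, and the day 270 libraries lay above the day 60 libraries of the same population. Among all genes, marked libraries lay wholly above unmarked ones in 3.28% at day 270 and in 4.46% at day 60, and day 270 libraries lay wholly above those of day 60 in 6.46% in marked and in 10.4% in unmarked cells. As with Slamf6, the choice of the gene on these levels leaves nothing to read from the comparison.

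The log2 fold change of Slamf9, marked minus unmarked, was 0.99 ± 0.19 (SE) at day 270 and 0.58 ± 0.19 at day 60. Day 270 minus day 60, it was 1.26 ± 0.19 in marked cells and 0.85 ± 0.19 in unmarked cells. Slamf9 was higher in the marked library of all 6 specimens, as were 1.85% of all genes, with ratios of 1.84 to 2.17 at day 270 and 1.24 to 1.79 at day 60. In the authors' deposited table of day 270 marked against day 60 unmarked cells, which lists 265 genes, Slamf9, Slamf6 and Cd2 are the members present, with log2 fold changes of 1.82, -2.17 and -2.41. The largest false discovery rate in that list was 0.05, so presence in it is itself a filter on these same levels. That comparison also mixes marking with day.

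Slamf7, the plasma cell antigen gene, had 756, 666 and 862 CPM in marked cells of day 270, against 714, 833 and 745 CPM in unmarked cells. The day 60 values were 660.2, 756 and 926 CPM in marked cells, against 699.9, 730.0 and 846 CPM in unmarked cells. The libraries of all 4 groups overlapped, and the log2 fold change was -0.01 ± 0.16 (SE) at day 270 and 0.03 ± 0.16 at day 60. Within a library Slamf9 and Slamf6 stood in very different proportion, with 23.7 to 49.4 times as many Slamf9 as Slamf6 reads in marked cells of day 270 and 3.05 to 5.79 times in unmarked cells. At day 60 the ratio was 21.7 to 94.0 in marked cells and 2.12 to 2.62 in unmarked cells. These ratios within a library do not depend on how the libraries were scaled.

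**Figure D1:**
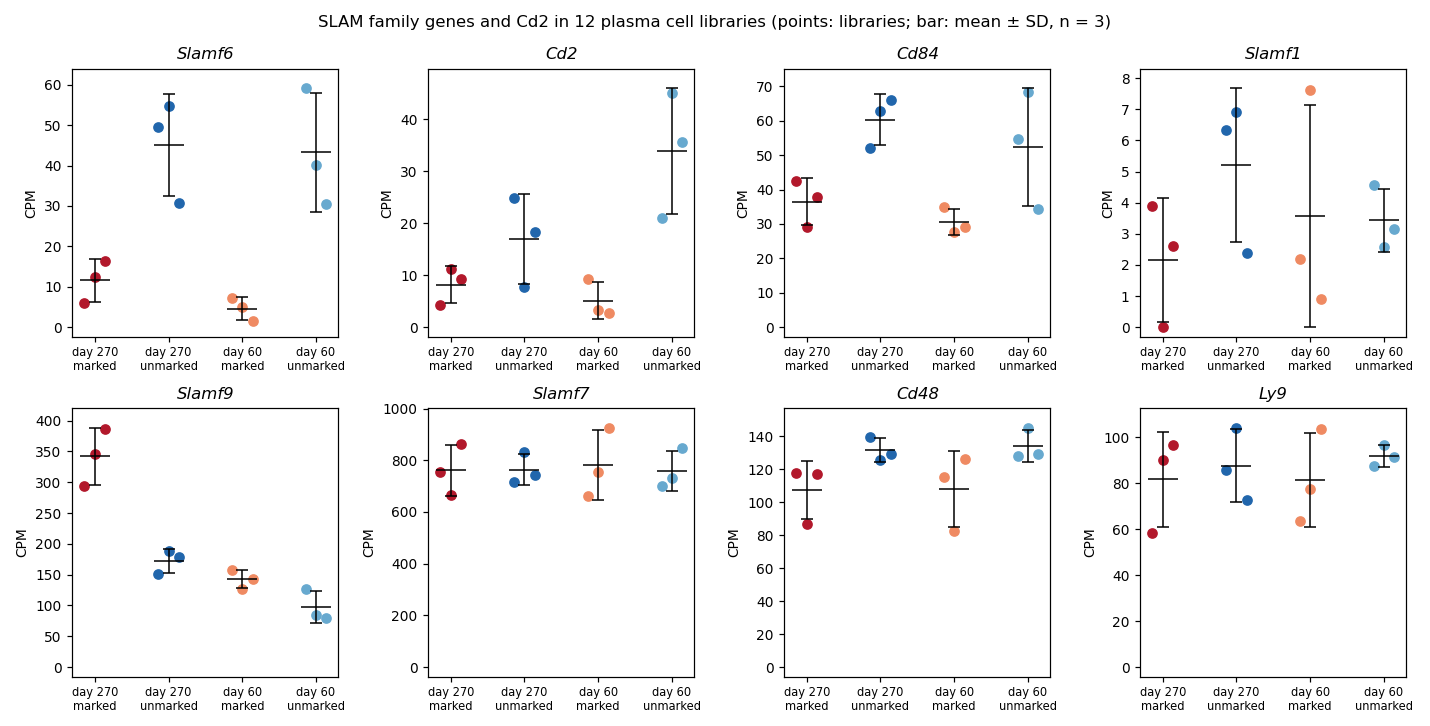
Level in CPM (vertical axis, from 0, a separate scale for each gene) of the 8 genes in the 4 groups. Points are libraries and bars are mean ± SD (n = 3); Slamf6 is low in all 6 marked libraries, Slamf9 is highest in marked cells of day 270, and Slamf7 overlaps in all groups.

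Of the family members not chosen on their levels, Cd84 showed a wider gap than Cd48 or Ly9. Cd84 encodes a self-binding receptor of B cells, T cells and platelets. It had 42.5, 29.0 and 37.98 CPM in marked cells of day 270, against 52.1, 62.9 and 65.995 CPM in unmarked cells. At day 60 it had 34.9, 27.6 and 29.1 CPM in marked cells, against 54.8, 68.3 and 34.3 CPM in unmarked cells. The libraries did not overlap at day 270 and overlapped at day 60, where unmarked library 3 lay within the marked range. In the 12704 genes tested, the marked libraries lay wholly below the unmarked ones in 12% at day 270.

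Cd84 was lower in the marked library of all 6 specimens, as were 7.64% of all genes. Its log2 fold change was -0.73 ± 0.26 (SE, limma adjusted p = 0.233) at day 270 and -0.72 ± 0.26 (adjusted p = 0.530) at day 60. Over the mean of both days it was -0.73 ± 0.18, with a limma adjusted p of 0.0509, which misses the threshold of 0.05. It stayed above the threshold in 15 of 20 alternatives, up to 0.164 without unmarked library 2 of day 60, and was 0.0919 with TMM scaling, 0.0969 with edgeR and 0.122 without both marked libraries high in ribosomal RNA. It lay on the other side at a pseudocount of 1 (adjusted p = 0.0475), with DESeq2 (0.0391), and without marked library 1 or 3 of day 270 (0.0360 and 0.0423) or unmarked library 3 of day 60 (0.0233).

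Cd48, the ligand gene, had 118, 87.0 and 117 CPM in marked cells of day 270, against 140, 126 and 129.5 CPM in unmarked cells. The corresponding day 60 values were 116, 82.3 and 126 CPM in marked cells, against 128, 145 and 129 CPM in unmarked cells. The marked libraries lay below the unmarked ones within each day, as in 12% of all genes at day 270 and 11.3% at day 60, and Cd48 was lower in marked cells in 6 of 6 specimens, as were 7.64% of all genes. Its log2 fold change was small, -0.31 ± 0.19 (SE, limma adjusted p = 0.4845) at day 270, -0.33 ± 0.19 (adjusted p = 0.858) at day 60 and -0.32 ± 0.13 (adjusted p = 0.239) over both days. The median over all genes tested was -0.22 at day 270, -0.13 at day 60 and -0.18 over both days. Relative to scaling by trimmed means (TMM), total-read scaling moved that median by -0.13, -0.12 and -0.13.

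Ly9 encodes a self-binding receptor also called CD229, which is known on plasma cells. It had 58.3, 89.9 and 96.8 CPM in marked cells of day 270, against 86.0, 104 and 72.5 CPM in unmarked cells. At day 60 it had 63.4, 77.3 and 104 CPM in marked cells, against 87.3, 96.7 and 91.3 CPM in unmarked cells. The groups overlapped at both days. The log2 fold change of Ly9 was -0.20 ± 0.23 (SE, limma adjusted p = 0.956) at day 60, and -0.12 ± 0.23 (adjusted p = 0.853) at day 270, where TMM scaling turned its sign. Ly9 lies wholly inside the span of Cd244 on the opposite strand, and whether the counting used strand is not stated, so reads of the pair cannot be told apart. Cd244 itself was given 50 reads over all libraries, and Ly9 11527. The Cd244 reads all lay in unmarked libraries, with 24 in library 3 of day 270, 17 in library 1 of day 60 and 0 in library 3 of day 60.

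Slamf1 encodes the founding member of the family, a self-binding receptor that is also a microbial sensor of phagocytes. It was near the limit of detection, with 488 reads over all 12 libraries. It had 3.89, 0 and 2.60 CPM in marked cells of day 270, against 6.35, 6.93 and 2.38 CPM in unmarked cells. The library at 0 allows up to 0.403 CPM, on counting error alone. At day 60 it had 2.18, 7.61 and 0.894 CPM in marked cells, against 4.56, 2.58 and 3.17 CPM in unmarked cells. The groups overlapped, with a log2 fold change of -1.48 ± 0.80 (SE, limma adjusted p = 0.422) at day 270 and -0.30 ± 0.80 (adjusted p = 0.987) at day 60. Without marked library 2 of day 270, the library at 0, the day 270 value was -0.52.

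None of these 4 genes was called at either day or over the mean of both days, where limma called 0.48% of all genes at day 270, 0.189% at day 60 and 1.84% over both days. At an unadjusted p under 0.05, 1773 genes passed at day 270, 819 at day 60 and 2146 over both days. Cd84 was among them in each, and Cd48 over both days only. For the difference between the days' marked minus unmarked contrasts, limma called 0 of 12704 genes, with 387 at an unadjusted p under 0.05, edgeR called 0 and DESeq2 called 5.

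**Figure D2:**
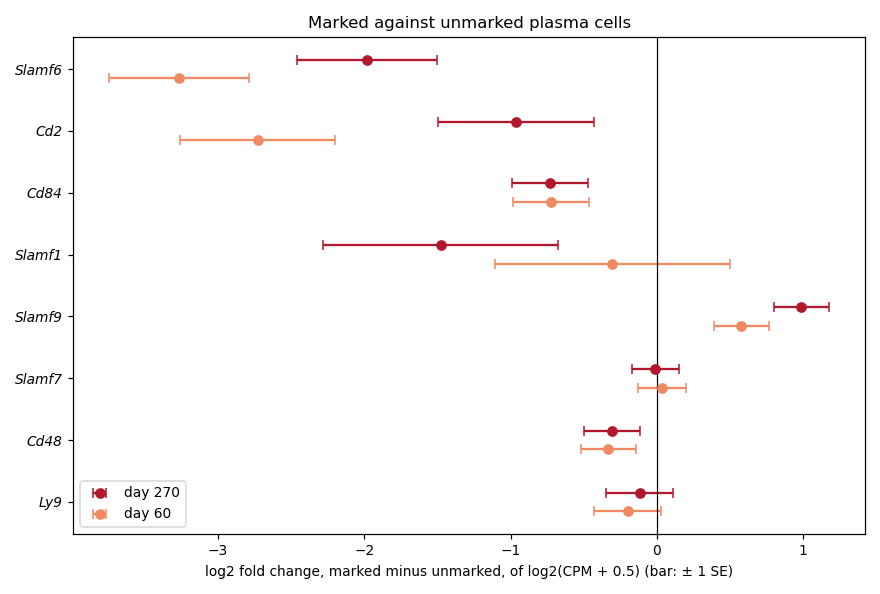
Log2 fold change, marked minus unmarked, of log2(CPM + 0.5) (horizontal axis) for each gene at day 270 and at day 60; bars are ± 1 SE of the limma fit over 12 libraries. Slamf6 and Cd2 lie far to the left at day 60 (-3.26 and -2.73), Slamf9 lies to the right at both days, and Slamf7 sits at 0.

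Levels of different genes were compared per kilobase of the longest principal coding transcript. Slamf9 ranked first in marked cells of day 270, at 261 ± 35.2 CPM per kb (SD, n = 3), with Slamf7 second at 191.5 ± 24.7. In the other groups Slamf7 ranked first, at 192 ± 15.4 CPM per kb in unmarked cells of day 270, 196 ± 33.9 in marked cells of day 60 and 191 ± 19.3 in unmarked cells of day 60. Slamf9 reached 131 ± 14.8, 109 ± 11.5 and 74.0 ± 19.6 CPM per kb in those groups, and in unmarked cells of day 60 it stood below Cd48 at 113 ± 8.06. The intervals of mean ± 1 SD of Slamf9 and Cd48 overlapped in unmarked cells of day 270 and in marked cells of day 60.

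Ly9 came next after these in every group, at 32.8 to 36.9 CPM per kb, and Slamf1 was last in every group, at 0.803 to 1.94. Between them, Cd84, Cd2 and Slamf6 changed places. Marked cells of day 270 had 11.1 ± 2.09, 7.13 ± 3.12 and 4.67 ± 2.11 CPM per kb of Cd84, Cd2 and Slamf6, and unmarked cells of day 270 had 18.3 ± 2.22, 14.8 ± 7.47 and 18.1 ± 5.05. Marked cells of day 60 had 9.28 ± 1.16, 4.45 ± 3.14 and 1.83 ± 1.16 CPM per kb, and unmarked cells of day 60 had 15.9 ± 5.20, 29.5 ± 10.5 and 17.4 ± 5.91. By the same measure, the intervals of neighbours among these genes overlapped in unmarked cells of either day, and so did those of Ly9 and Cd2 in unmarked cells of day 60. In marked cells the intervals of Cd2 and Slamf6 overlapped at both days, those of Cd84 and Cd2 at day 270, and those of Slamf6 and Slamf1 at day 60.

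The 8 genes together took 1051 to 1529 CPM in every library. Slamf7 made up 53.6 to 69.6% of that sum. Slamf9 made up 23.0 to 27.9% in marked cells of day 270 and 12.3 to 14.4% in unmarked cells of that day. At day 60 the share of Slamf9 was 10.7 to 15.0% in marked cells and 6.39 to 10.7% in unmarked cells. The share of Slamf6 was 0.464 to 1.07% in marked cells and 2.48 to 4.04% in unmarked cells of day 270, and 0.114 to 0.693% in marked cells and 2.43 to 5.01% in unmarked cells of day 60.

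**Figure D3:**
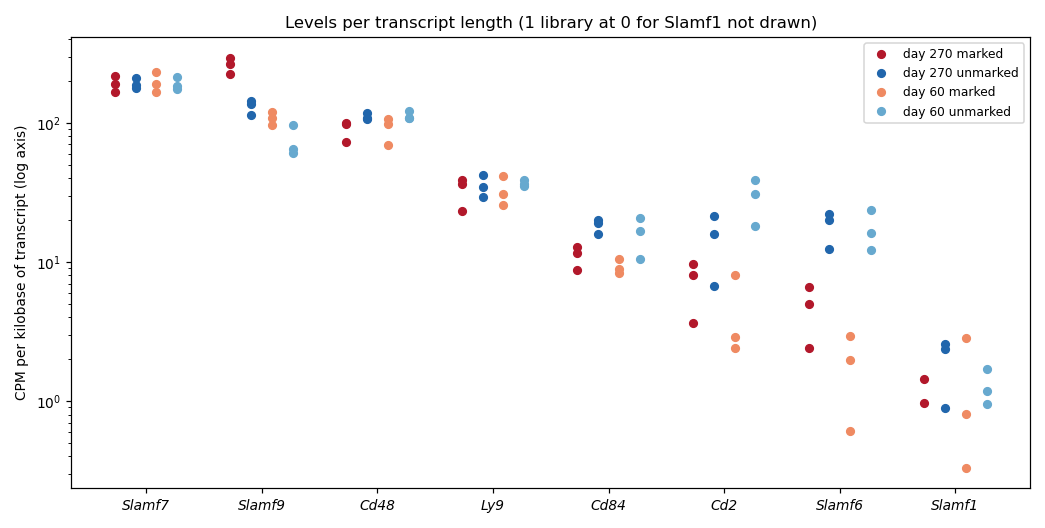
Level per transcript length (vertical axis, CPM per kb, log axis) of the 8 genes, ordered from high to low; each point is a library and colours are the 4 groups. Slamf7 and Slamf9 lead, Slamf9 passes Slamf7 in marked cells of day 270, and Slamf6 and Cd2 spread over the widest range.

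Signalling partners were counted from a list of 32 other receptors, adaptors, kinases, phosphatases, CD2 tail-binding proteins and SLAMF1 complex members. The table held 29 of them, and 27 passed the filter on low counts. Slamf8 (a receptor) and the adaptor genes Sh2d1a and Sh2d1b2 were not analysed here, and Cd244 (a receptor) and Prkcq (a kinase) had too few reads. At day 270 limma called 0 of the 27, with 3 at an unadjusted p under 0.05, edgeR called 0 and DESeq2 called 0. At day 60 limma called 0, with 4 at an unadjusted p under 0.05, and edgeR and DESeq2 called 0. Over the mean of both days limma called 1, lower in marked cells, where 1.84% of all genes were called and 1.5% were called lower. The median log2 fold change of the 27 genes over both days was -0.30, and that of all genes -0.18.

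The gene called was Sh3kbp1, which encodes CIN85, a scaffold related to CD2AP that also takes part in B cell receptor signalling. It had 33.8, 24.8 and 7.36 CPM in marked cells of day 270, against 50.4, 62.1 and 53.4 CPM in unmarked cells. Its day 60 levels were 13.5, 19.99 and 26.8 CPM in marked cells, against 42.3, 30.5 and 52.2 CPM in unmarked cells. Marked libraries lay below unmarked ones at each day, as in 12% of all genes at day 270 and 11.3% at day 60, and Sh3kbp1 was lower in marked cells in 6 of 6 specimens, as were 7.64% of all genes. Its log2 fold change over both days was -1.30 ± 0.30 (SE, limma adjusted p = 0.0280). The count of 1 became 0 with edgeR and 3 with DESeq2, and lay between 0 and 2 when single libraries were left out.

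Partners of the adaptor and kinase step did not pass. Sh2d1b1, which encodes the adaptor EAT-2, averaged 2.65 ± 3.33 CPM in marked and 3.60 ± 0.460 CPM in unmarked cells of day 270, and 0.859 ± 0.939 CPM in marked and 4.62 ± 1.81 CPM in unmarked cells of day 60 (SD, n = 3). Its log2 fold change over both days was -1.60 ± 0.58 (SE, limma adjusted p = 0.180), and its reads are uncertain because Sh2d1b2 is a near copy. Fyn, the kinase that SAP brings in, averaged 9.99 ± 4.47 CPM in marked and 17.5 ± 4.31 CPM in unmarked cells of day 270, and 5.535 ± 2.40 CPM in marked and 12.95 ± 7.09 CPM in unmarked cells of day 60. Its log2 fold change over both days was -0.96 ± 0.36 (SE, limma adjusted p = 0.194).

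The phosphatase genes Ptpn6, for SHP-1, and Inpp5d, for SHIP-1, were read deeply and had log2 fold changes over both days of -0.06 ± 0.15 (SE, limma adjusted p = 0.877) and -0.30 ± 0.19 (adjusted p = 0.446). Among genes whose products bind the CD2 tail, Cd2ap, an adaptor to actin, had -0.51 ± 0.26 (SE, limma adjusted p = 0.326) and Pstpip1, an adaptor to the actin regulator WASP, -0.43 ± 0.59 (adjusted p = 0.750). Between days, limma called 0 of the 27 genes in marked cells, where it called 0.0315% of all genes, and 0 in unmarked cells, where it called 0 of all genes (378 at an unadjusted p under 0.05, 0 by edgeR and 11 by DESeq2). Of the 27, there was 1 in each population at an unadjusted p under 0.05, and edgeR and DESeq2 called 0.

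**Figure D4:**
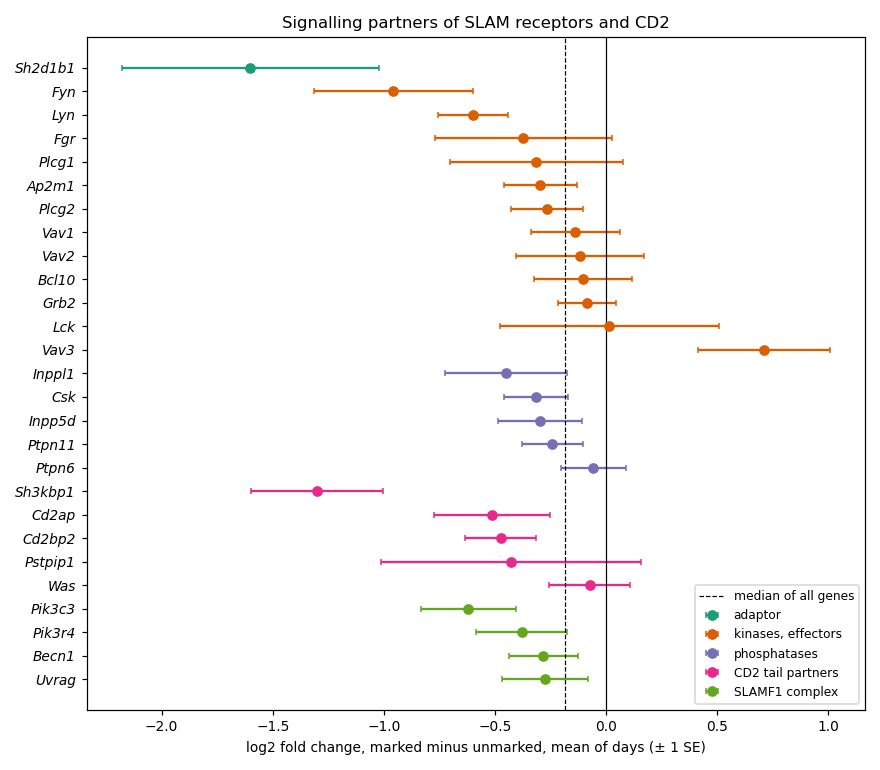
Log2 fold change, marked minus unmarked, mean of both days (horizontal axis) of the 27 partner genes, grouped by role; bars are ± 1 SE of the limma fit and the dashed line is the median of all genes (-0.18). Sh3kbp1 at -1.30 is the only one called by limma.

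Genes of the SLAM region of chromosome 1, from the first to the last member and 100 kb beyond each end, did not share 1 direction. The table held 30 genes there, of which 23 are not members and 19 of those were tested. Limma called 0 of the 19 at day 270, with 2 at an unadjusted p under 0.05, and 0 at day 60, with 4. It called 2 over the mean of both days, both lower in marked cells, where 1.84% of all genes were called and 1.5% were called lower. Both stood just under the threshold, and these calls were not followed in the alternatives. Copa, which encodes a coat protein of Golgi vesicles, averaged 479.6 ± 101 CPM in marked and 651 ± 36.1 CPM in unmarked cells of day 270, and 391 ± 80.2 CPM in marked and 557 ± 42.0 CPM in unmarked cells of day 60 (SD, n = 3). Its log2 fold change over both days was -0.49 ± 0.12 (SE, limma adjusted p = 0.0492). Relative to TMM, total-read scaling moved the median of all genes by -0.13 over both days. Cfap45, a gene of cilia, averaged 0.712 CPM over all libraries, close to the 0.5 CPM added before the logarithm. Its log2 fold change over both days was -1.68 ± 0.42 (SE, limma adjusted p = 0.0492). A gene this low can pass the filter through its higher group alone, so nothing is read from its direction.

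Around Slamf6, the antisense gene model Gm37065 overlaps its start and had 152 reads in all, against 3590 for Slamf6. Within Slamf7, the antisense gene model Gm37787 had 186 reads, against 105034. The gene after Slamf9 on the same strand, Igsf9, was named here after its values were seen. It was higher in marked cells in 6 of 6 specimens, as were 1.85% of all genes. Its log2 fold change over both days was 1.48 ± 0.47 (SE, limma adjusted p = 0.130), and its highest level was 8.98 CPM. In unmarked cells of day 60 it had 10, 0 and 0 reads. Like Cfap45, a gene this low can pass the filter through its higher groups alone, so nothing is read from its direction.

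**Figure D5:**
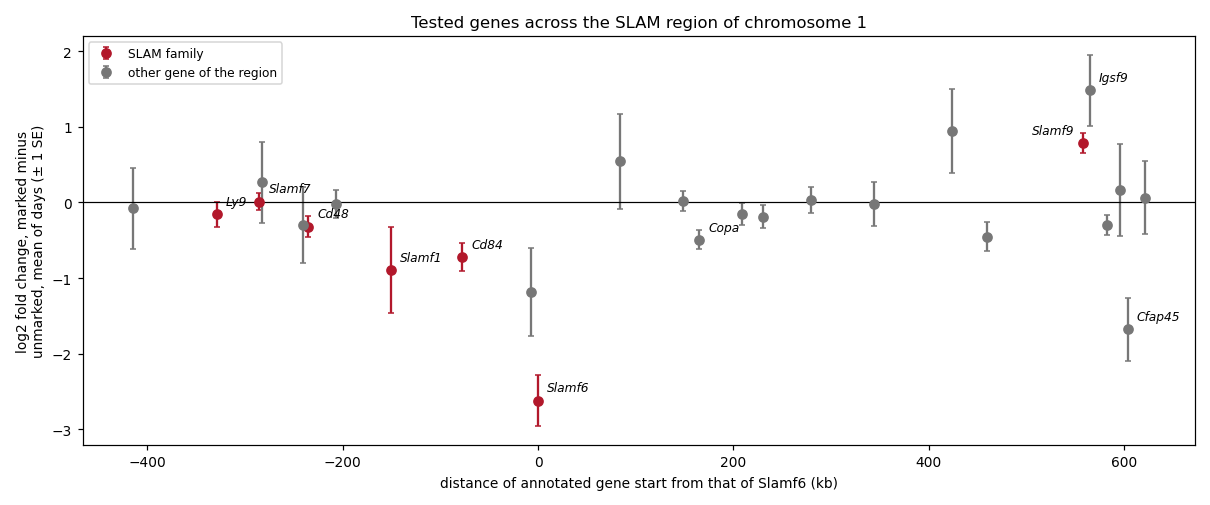
Log2 fold change, marked minus unmarked, mean of both days (vertical axis, ± 1 SE of the limma fit) against the distance of each gene's start from that of Slamf6 in kb (horizontal axis). SLAM family genes are red and other tested genes grey. Slamf6 is lowest at -2.62, and Slamf9 at 0.78 lies below Igsf9 at 1.48 and Kcnj10 at 0.94. Slamf6 and Slamf9 were chosen on their levels.

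The genes most like Slamf6 and Slamf9 were found by Pearson's r of log2(CPM + 0.5) over the 12 libraries, among 8590 genes with a mean of at least 5 CPM. Libraries share their scaling and group, so the values are a description. The 5 nearest to Slamf6 were Ltb, which encodes lymphotoxin beta (r = 0.918), Top2a, a topoisomerase of dividing cells (0.914), Rrm2, a subunit of ribonucleotide reductase (0.905), Cdc20, an activator of mitotic exit (0.894), and Cd180, a toll-like receptor relative of B cells (0.887). The 5 nearest to Slamf9 were Axl, a receptor kinase that binds Gas6 (r = 0.950), Clic5, a chloride channel family gene (0.944), Lmo2, a transcription cofactor (0.942), Tmem205 (0.940) and B3galnt1, a glycosyltransferase (0.939).

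Axl averaged 127 CPM in marked and 67.5 CPM in unmarked cells of day 270, and 31.9 CPM in marked and 23.0 CPM in unmarked cells of day 60. Top2a averaged 6.79 CPM in marked and 25.6 CPM in unmarked cells of day 270, and 1.63 CPM in marked and 27.4 CPM in unmarked cells of day 60. Axl had the group order of Slamf9, and Top2a was low in marked cells at both days, as Slamf6 was. Both genes were picked for likeness over these same 12 libraries, so the shared pattern follows from that choice.

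The sum of dividing cell markers was lower in marked cells at both days, as Slamf6 was, while Cd2 overlapped at day 270. The summed level of 12 such genes was 98.7 to 124 CPM in marked and 235 to 264 CPM in unmarked cells of day 270, and 84.1 to 99.5 CPM in marked and 245 to 273 CPM in unmarked cells of day 60. Single genes were less clear. Pcna overlapped at both days, with 37.7 to 47.4 CPM in marked and 45.6 to 60.2 CPM in unmarked cells of day 60. Mki67 overlapped at day 270, with 16.2 to 28.5 CPM in marked and 23.4 to 68.9 CPM in unmarked cells, and did not at day 60. Of 14 B cell markers, all in the table, the sum was 1897 to 2296 CPM in marked and 2420 to 2470 CPM in unmarked cells of day 270, and 1860 to 2157 CPM in marked and 2119 to 2437 CPM in unmarked cells of day 60. Pax5, the B cell identity factor, had at most 4.45 CPM in any library, and 2 of the 3 marked libraries of day 270 were at 0. Their part in the levels of Slamf6, Cd2 and Cd84 was not tested.

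Slamf6, Cd2 and Cd48 are also genes of NK and T cells. Of 11 NK cell markers 5 were in the table, and their sum was 0 to 3.95 CPM in marked and 11.7 to 24.8 CPM in unmarked cells of day 270, and 2.51 to 3.33 CPM in marked and 12.6 to 22.9 CPM in unmarked cells of day 60. Most of it was Prf1, the perforin gene. Of 17 T cell markers 9 were in the table, with a sum of 111 to 255 CPM in marked and 233 to 311 CPM in unmarked cells of day 270, and 144 to 194.5 CPM in marked and 173 to 247 CPM in unmarked cells of day 60. That sum was mostly Cd28, a costimulatory receptor also known on plasma cells. The T cell receptor chain gene Cd3d reached at most 2.60 CPM in any library and was at 0 in 3 of 3 marked libraries of day 60, and Trac reached at most 2.02 CPM. Cd3g had reads in all 12 libraries, with 4.03 to 5.08 CPM in marked and 4.91 to 6.90 CPM in unmarked cells of day 270, and 1.43 to 3.64 CPM in marked and 3.78 to 8.60 CPM in unmarked cells of day 60. Cd4, the mouse gene, had 3.14 to 9.93 CPM in marked and 6.44 to 13.0 CPM in unmarked cells of day 270, and 0 to 2.91 CPM in marked and 2.06 to 9.04 CPM in unmarked cells of day 60. The part of such cells in the Slamf6, Cd2 and Cd48 reads was not tested.

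Slamf9 was set beside markers of macrophages and of plasmacytoid dendritic cells. The sum of 14 monocyte and macrophage markers was 259 to 674 CPM in marked and 158 to 330.5 CPM in unmarked cells of day 270, and 143 to 253 CPM in marked and 94.97 to 308 CPM in unmarked cells of day 60. Csf1r, which defines these cells, had 7.97 to 24.7 CPM in marked and 7.37 to 13.2 CPM in unmarked cells of day 270, and 1.19 to 2.68 CPM in marked and 1.58 to 15.4 CPM in unmarked cells of day 60. Adgre1, another defining gene, had 7.78 to 17.7 CPM in marked and 4.88 to 13.0 CPM in unmarked cells of day 270, and 0.357 to 7.69 CPM in marked and 1.996 to 13.2 CPM in unmarked cells of day 60. Of 8 plasmacytoid dendritic cell markers 7 were in the table, with a sum of 1585 to 1830 CPM in marked and 1439 to 1710 CPM in unmarked cells of day 270, and 1121 to 1302 CPM in marked and 845 to 1453 CPM in unmarked cells of day 60. Most of this was Ly6d, and the defining gene Siglech had at most 1.88 CPM in any library. Neutrophil markers, 12 of 12 in the table, summed to 88.4 to 557.5 CPM (median 529.7) in marked and 41.4 to 226 CPM (median 220.0) in unmarked cells of day 270, and to 1.78 to 821 CPM (median 207) in marked and 22.9 to 299 CPM (median 32.6) in unmarked cells of day 60. Erythroid markers, 9 of 10 in the table, summed to 185 to 801.5 CPM in marked and 30.2 to 169 CPM in unmarked cells of day 270, and to 108 to 350.5 CPM in marked and 39.5 to 69.0 CPM in unmarked cells of day 60. The part of these cells in the Slamf9 levels was not tested.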

How the data were processed

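Transcripts were sequenced from 12 libraries in 4 groups of 3, made with RNeasy Micro and TruSeq RNA kits per the labels' protocols. The build was GRCm38 and limma was used, per the submitters' processing notes. Aligner, counter, strandedness and sorting strategy: not given in the sources used here. Per the file headers, the deposited tables give CPM per library for 14219 and for 265 genes, with the authors' log2 fold changes and p-values, and whole-read counts for 230 genes. Reads were recovered from CPM with a single total for each library: of 151342 values below 1000 reads, 100% came within 0.05 of whole numbers, and all values of the 230 counted genes were matched. These totals cover the table's genes, not the full depth. Replicates of a group differed by more than counting error (lowest chi-square over its degrees of freedom 14.8).

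The members and gene lists were chosen with earlier results of these data known. The main test was limma 3.58.1 (R 4.3.3) with a trended prior on log2(CPM + 0.5) over 12 libraries, 1 coefficient per group and no block. filterByExpr of edgeR 4.0.16 (minimum count 10) kept 12704 genes, all 8 members among them, and removed 1515. Calls needed a two-sided p under 0.05 after Benjamini-Hochberg adjustment over all genes, and the step was tested on simulated data. Levels between genes used the longest principal coding transcript of GENCODE M21, which held 14165 of the 14219 identifiers. Alternatives were TMM scaling, pseudocounts of 0.1 and 1, no filter, the quasi-likelihood test of edgeR and DESeq2 1.42.0 on the recovered reads, a block for the shared number, leaving out each library and, chosen after seeing the data, leaving out both marked libraries high in ribosomal RNA. Partners were named if called, and otherwise by a fixed short list. Region genes were named when called or when they overlap a member, and Igsf9 after its values were seen. No set was tested for enrichment.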

Additional observations from a re-analysis of the deposited data

How the results depend on the processing

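The partner count over both days was 1 in the reported fit, 0 with edgeR and 3 with DESeq2, and 0 to 2 when 1 library was left out. It was 0 without unmarked library 1, 2 or 3 of day 270, marked library 1 or 2 of day 60, or unmarked library 1 or 3 of day 60, and 2 without marked library 1 or 3 of day 270. The count at day 270 was 0, and 0 to 1 when 1 library was left out (1 without marked library 1). The number of all genes called at day 270 was 61 in the reported fit, 482 without that library, 5 to 482 when any 1 library was left out, 36 with edgeR, 256 with DESeq2 and 0 in a fit of the compared libraries only, and at day 60 it was 24 in the reported fit, 3 to 53 when 1 library was left out, 20 with edgeR, 119 with DESeq2 and 69 in a fit of the compared libraries only. Over both days the number of all genes called was 234 in the reported fit, 204 with edgeR, 544 with DESeq2 and 97 to 469 when 1 library was left out. The sign of the log2 fold change turned for Slamf1 at day 60 (0.22 with edgeR, 0.22 with DESeq2, and -0.99 to 0.28 over all settings), for Ly9 at day 270 (0.01 with TMM scaling, 0.05 with edgeR, 0.09 with DESeq2, and -0.26 to 0.11 over all settings) and for Ly9 over both days (0.01 with DESeq2). The cause was not tested. In every setting the log2 fold change of Slamf6 lay between -2.27 and -1.58 at day 270 and between -3.68 and -2.70 at day 60. That of Cd2 lay between -1.43 and -0.57 at day 270 and between -3.22 and -2.43 at day 60, and that of Slamf9 between 0.89 and 1.16 at day 270 and between 0.45 and 0.78 at day 60.

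Marked and unmarked libraries of a day share a number, read here as a specimen number. No label calls it that or says that it marks an animal. Residuals of libraries with the same number had correlations of -0.0109 to 0.115 (6 pairs, median 0.0556), and those with different numbers -0.104 to 0.0301 (12 pairs). With a replicate block the partner count over both days stayed at 1, with 186 of all genes called, and Cd84 had a limma adjusted p of 0.0853. Without both marked libraries high in ribosomal RNA, the partner count over both days was 1. Slamf1 rests on 488 reads, and its day 270 value was -0.52 without the marked library that held 0.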
